A study of Mus musculus with 12 samples.

Results

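The genes described here are 10 immediate early genes that encode transcription factors, namely the Fos family members *Fos* and *Fosb*, the Jun family members *Jun*, *Junb*, and *Jund*, the zinc finger genes *Egr1* and *Egr2*, and the orphan nuclear receptor genes *Nr4a1*, *Nr4a2*, and *Nr4a3*. They were taken by symbol and not by a cutoff on a measured value, but with earlier results of these data known. All 10 were among the 31053 genes counted. Transcripts of single cells came from breast tumors of PyMT mice, in which the polyoma middle T oncogene is driven in the mammary epithelium by the MMTV promoter and tumors arise spontaneously. The study compared mice with signaling-competent PAR2 (PyMT-PAR2 WT) and mice with the PAR2 G37I mutation (PyMT-PAR2 G37I), a protease-activated receptor that resists signaling by coagulation factor Xa, and no mouse was treated. In each genotype there were 3 samples of CD11c-selected cells from late-stage tumors and 3 samples of CD4/CD8-selected cells from mid-size tumors, 12 samples in all. Tumors were digested, cells were selected with beads, frozen in serum with dimethyl sulfoxide, thawed, and run on the 10x Genomics platform, so tumor stage and selection cannot be told apart between the CD11c-selected and the CD4/CD8-selected cells. The barcodes name no sample, and therefore genotypes were not compared.

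Immediate early genes are transcribed within minutes of a stimulus from factors that are already present in the cell, without new protein synthesis, and their mRNAs are short-lived. Fos and Jun proteins pair to form the AP-1 factor, which binds with NFAT and other partners at cytokine genes such as *Ifng* in T cells. *Egr1* is a broad sensor of growth factor and stress signals through the MAP kinase pathway, *Egr2* acts in T cell tolerance and in macrophages, and the Nr4a genes respond to antigen receptor signals and to cyclic AMP and take part in T cell dysfunction. Enzymatic digestion of tissue, cold storage, and thawing are also known to induce these genes, so levels in dissociated cells include any such response.

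Promoter sequences are shown for *Fos* and the Nr4a genes, because *Fos* and *Nr4a3* differed in opposite directions between migratory DCs and type 1 conventional DCs, and *Nr4a1* and *Nr4a2* were among the 3 genes past 1.5-fold between CD8 cells with and without *Ifng*. The bases before the annotated start of transcription were taken from RefSeq on the build GRCm38.p6. An entry was found for 9 of the 10 genes, with 13 start sites, and *Egr1* had none. They are written 5′ to 3′ in the direction of the gene, and capitals mark the short cyclic AMP response element motif TGACG, read on either strand (CGTCA), which is bound by CREB family factors. The window of *Nr4a1* lies inside the annotated gene, before an internal RefSeq start, and for *Nr4a3* the bases that fall within annotated exons are left out.
Fos (chr12:85473640-85473889, plus strand, 250 bases): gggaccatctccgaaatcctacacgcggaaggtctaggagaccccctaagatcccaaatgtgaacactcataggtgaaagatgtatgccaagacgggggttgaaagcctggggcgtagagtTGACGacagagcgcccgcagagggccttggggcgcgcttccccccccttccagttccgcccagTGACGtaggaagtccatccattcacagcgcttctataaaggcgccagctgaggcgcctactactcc
Nr4a1 (chr15:101266596-101266845, plus strand, 250 bases): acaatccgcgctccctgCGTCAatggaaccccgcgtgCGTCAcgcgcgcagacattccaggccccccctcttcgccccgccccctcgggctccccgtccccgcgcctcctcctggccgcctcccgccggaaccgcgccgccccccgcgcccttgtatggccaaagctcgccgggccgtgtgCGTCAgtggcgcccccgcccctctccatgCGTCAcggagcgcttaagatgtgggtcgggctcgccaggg
Nr4a2 (chr2:57124004-57124253, minus strand, 250 bases): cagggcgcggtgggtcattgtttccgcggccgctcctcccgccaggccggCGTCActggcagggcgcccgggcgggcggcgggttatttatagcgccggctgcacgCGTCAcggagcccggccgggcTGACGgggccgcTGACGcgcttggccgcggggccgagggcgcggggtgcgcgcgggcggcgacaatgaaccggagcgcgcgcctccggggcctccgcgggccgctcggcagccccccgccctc
Nr4a3 (chr4:48045055-48045152, plus strand, 98 bases): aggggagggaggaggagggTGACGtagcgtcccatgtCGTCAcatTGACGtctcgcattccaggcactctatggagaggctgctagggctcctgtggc
The motif occurred 2 times before *Fos*, 4 times before *Nr4a1*, 4 times before *Nr4a2*, and 3 times in the 98 bases before *Nr4a3*. It was present in 17.7% of 32817 windows of 250 bases before RefSeq start sites. Among the others it occurred once each before *Fosb* and *Junb*, 2 times in each of 3 overlapping windows of *Egr2*, and in neither the window of *Jun* nor that of *Jund*. The palindromic form TGACGTCA, found in 1.55% of windows, was in none of the 13 windows, nor was the AP-1 motif (TGACTCA or TGAGTCA, 4.46% of windows). TATAAA, found in 12.4% of windows on either strand, was in the windows of *Fos* and *Nr4a2*, for the latter on the strand opposite to the one shown. The CArG box, bound by serum response factor and present in 1.47% of windows, was found in 4 of the 5 windows of *Egr2*, 3 of which overlap, and in no other window of these genes. *Egr1* had no window, and bases beyond 250 before a start were not searched, so absence from a window does not mean absence from the promoter. A match describes letters only, and no binding was measured.

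UMIs (unique molecular identifiers, which mark single captured mRNA molecules) were counted in 11639 CD11c-selected and 22806 CD4/CD8-selected cells with at least 200 detected genes. In each matrix the barcodes run through the alphabet 6 times, and these stretches, called runs, show the spread within a matrix but were linked to no sample or genotype. Median UMIs per cell ranged from 6290 to 31161.5 over the CD11c-selected runs and from 3632.5 to 6525 over the CD4/CD8-selected runs. The highest value belongs to CD11c-selected run 4, which has only 360 cells, and results that rest on it are given with and without it. In the CD11c-selected matrix 76 barcodes occurred more than once, and in the CD4/CD8-selected matrix 51 did. A level is the sum of the UMIs of a gene over the cells of a group per 1000000 UMIs of that group (CPM), with the exact 95% Poisson confidence interval (CI), which covers counting error only. Since each matrix counts as 1 sample there are no replicates, and a fold of 2 between groups, in genes with a pooled level of at least 10 CPM, was used to name differences, without a test. Counting near the end of transcripts does not adjust for length, so levels are compared across groups for 1 gene and never between genes.

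Cells were gated on raw UMIs of markers, and cells that met more than 1 gate were left out. The macrophage gate (at least 10 UMIs of *C1qa*, *C1qb*, and *C1qc* together) held 5738 CD11c-selected and 916 CD4/CD8-selected cells, and the CD8 T gate (at least 2 Cd3 UMIs and 1 *Cd8a* UMI, with neither *Cd4* nor *Foxp3*) held 14698 CD4/CD8-selected cells. Genes not used for gating followed the labels in part. In CD11c-selected macrophages *Csf1r* stood at 615 CPM and *Trac* at 0.2 CPM, in CD8 T cells *Trac* stood at 648 CPM and *Csf1r* at 0.8 CPM, and *Dcn* was at 5376 and 6340 CPM in the fibroblast gates. In the CD11c-selected matrix only 27 cells met the CD8 T gate, so T cells were described in the CD4/CD8-selected cells alone. The other CD11c-selected gates held 438 type 1 conventional DCs (cDC1), 197 type 2 conventional DCs (cDC2), 180 migratory DCs (*Ccr7* and *Fscn1*), 123 neutrophils, 499 myeloid cells marked by *Retnla* and *Ear2*, 302 epithelial cells, and 106 fibroblasts. Among CD4/CD8-selected cells there were 556 CD4 T cells, 109 Tregs, 280 epithelial cells, and 88 fibroblasts. Of the DC genes, *Zbtb46* was at 38.6, 56.9, and 128 CPM in cDC1, cDC2, and migratory DCs, against 1.5 CPM in CD11c-selected macrophages. *Itgax* did not follow, at 106, 236, and 50.2 CPM against 266 CPM in those macrophages and 375 CPM in neutrophils. *H2-Ab1* was lower in migratory DCs (4013 CPM) than in those macrophages (7004 CPM). *Il1r2* was at 3382 CPM in neutrophils and 882 CPM in cDC2.

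Each of the 10 genes had its own order of cell types, and no cell type was highest for all of them. The orders span both matrices, and between gates of different matrices cell type cannot be told apart from selection and tumor stage. Neutrophils and DCs were described in CD11c-selected cells only, and T cells in CD4/CD8-selected cells only. Neutrophils were highest for *Fos*, *Jun*, and *Junb*, fibroblasts for *Fosb*, *Egr1*, *Egr2*, and *Nr4a1*, epithelial cells for *Jund*, cDC1 for *Nr4a2*, and migratory DCs for *Nr4a3*. Neutrophils held few UMIs, with a median of 3011 per cell, and 62 of the 123 came from run 6. Per cell they had 4.37 *Fos*, 4.05 *Jun*, and 12.7 *Junb* UMIs. CD11c-selected macrophages had more, at 8.36, 5.21, and 16.1. Among the *Fos* genes, *Fos* (chr12:85473890-85477273) was highest in neutrophils at 1473 CPM (CI 1351 to 1603) and lowest in CD8 T cells at 267 CPM (CI 264 to 271). The runs of neutrophils ranged from 1311 to 1545 CPM and those of CD8 T cells from 177 to 359 CPM, without overlap, whereas every pair of neighbors in the order overlapped. *Fosb* (chr7:19302696-19310051) was highest in fibroblasts, at 1685 CPM in CD11c-selected and 1805 CPM in CD4/CD8-selected cells, and lowest in Tregs at 340 CPM. In fibroblasts its runs lay between 1639 and 2233 CPM, and in CD8 T cells between 406 and 675 CPM.

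Among the *Jun* genes, *Jun* (chr4:95049034-95052222), the main transactivating partner of *Fos*, was high in neutrophils at 1364 CPM, in the epithelial gates at 1059 and 1212 CPM, and in the fibroblast gates at 967 and 1146 CPM. Its lowest run value in these 5 gates was 708 CPM, above the highest run of CD11c-selected macrophages at 634 CPM, but the CD4/CD8-selected macrophages reached 652 CPM and cDC2 768 CPM. *Junb* (chr8:84974484-84978718) reached 4264 CPM (CI 4055 to 4481) in neutrophils, 3552 CPM (CI 3406 to 3703) in Tregs, and 2703 CPM (CI 2638 to 2769) in CD4 T cells, against 1582 CPM in CD8 T cells. The runs of CD4 T cells, from 2442 to 3307 CPM, did not overlap those of CD8 T cells, from 1252 to 1758 CPM. *Jund* (chr8:70698949-70700616), the *Jun* gene that is expressed with the least dependence on stimulation, ranged from 411 CPM in migratory DCs to 1933 CPM in CD4/CD8-selected epithelial cells.

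*Egr1* separated the gates more widely than any other gene of the set. It stood at 1585 CPM (CI 1520 to 1651) in CD4/CD8-selected and 1347 CPM (CI 1293 to 1402) in CD11c-selected fibroblasts and at 1531 CPM (CI 1406 to 1663) in neutrophils, against 11.4 CPM (CI 7.0 to 17.6) in migratory DCs. Neutrophil runs varied from 643 to 1920 CPM and overlapped the fibroblast runs of 1018 to 2077 CPM, while CD11c-selected fibroblasts, from 1136 to 1582 CPM, lay above the epithelial runs that come next, from 239 to 521 CPM. The 5 runs of migratory DCs lay between 10.9 and 14.1 CPM, below every run of every other gate. *Egr2* (chr10:67535475-67542188) was at 84.7 CPM in CD11c-selected fibroblasts, 58.8 CPM in CD4/CD8-selected fibroblasts, and 59.7 CPM in *Retnla*/*Ear2* myeloid cells, with runs between 38.8 and 95.6 CPM. Below these came CD11c-selected macrophages at 17.2 CPM, with runs from 11.7 to 32.3 CPM. In CD8 T cells *Egr2* was rare, at 2.66 CPM (CI 2.33 to 3.04).

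The Nr4a genes were highest in different cell types. *Nr4a1* (chr15:101254269-101274795), often used as a reporter of antigen receptor signals, was highest in fibroblasts at 510 and 425 CPM, followed by Tregs at 262 CPM (CI 223 to 305), and the 97.7 CPM of CD8 T cells lay below the 179 CPM of CD4 T cells. *Nr4a2* (chr2:57106830-57124003) was highest in cDC1 at 565 CPM (CI 548 to 583) and CD8 T cells at 511 CPM (CI 506 to 515), whose runs overlapped, and lowest in CD4/CD8-selected macrophages at 59.7 CPM (CI 56.0 to 63.5). *Nr4a3* (chr4:48045153-48086447) reached 2529 CPM (CI 2455 to 2604) in migratory DCs, followed by cDC2 at 1131 CPM (CI 1089 to 1174) and *Retnla*/*Ear2* myeloid cells at 804 CPM (CI 784 to 824). The migratory DC runs read 3139, 2662, 1947, 2001, and 3055 CPM for *Nr4a3*, all above the 5 cDC2 runs, which ranged from 942 to 1377 CPM.

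**Figure D1:**
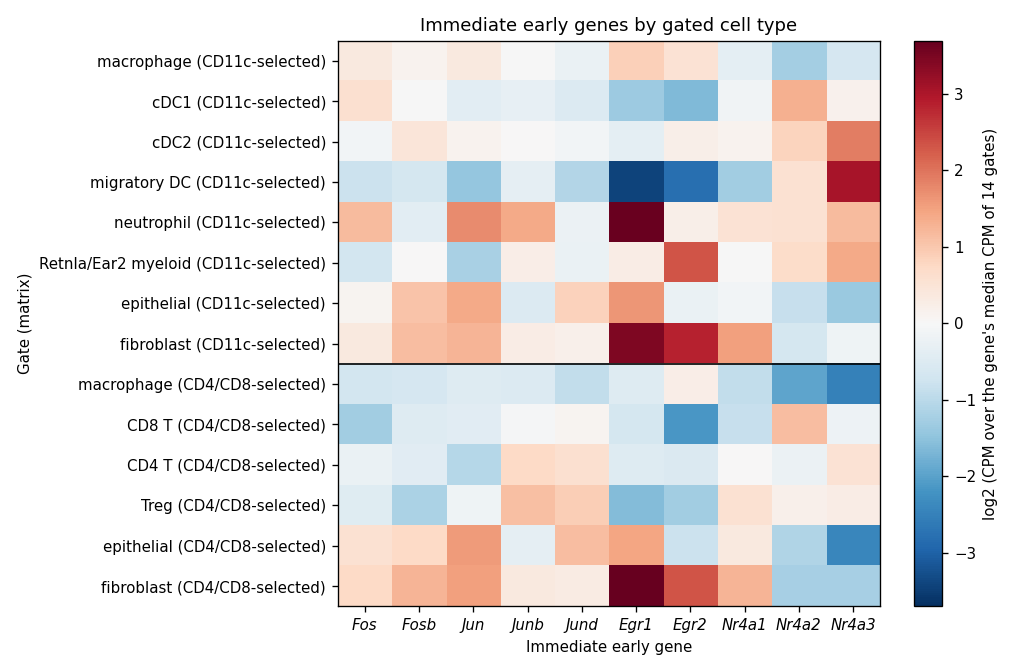
Level of each gene (columns) in each gate of at least 50 cells (rows, CD11c-selected above the line, CD4/CD8-selected below), as log2 of its CPM over the median CPM of that gene in the 14 gates. *Egr1* is high in both fibroblast gates (1347 and 1585 CPM) and neutrophils (1531 CPM), and migratory DCs combine the highest *Nr4a3* (2529 CPM) with the lowest *Egr1* (11.4 CPM).

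Migratory DCs, which have taken up antigen and upregulated *Ccr7*, differed from cDC1 in opposite directions among these genes. *Nr4a3* was 7.52-fold higher (CI 7.16 to 7.91), in 5 of 5 runs with folds from 6.46 to 7.76, and it was the only 1 of the 9 genes above the level minimum that passed 2-fold in that direction, a share no larger than the 13.3% of 6785 genes that did. In the other direction migratory DCs were lower for *Egr1* with 11.4 against 48.0 CPM (4.21-fold), *Fos* with 376 against 984 CPM (2.62-fold), *Nr4a1* with 73.0 against 162 CPM (2.22-fold), and *Jun* with 149 against 310 CPM (2.08-fold). These 4 of 9 genes compare with 22.7% of all genes, and each was lower in 5 of 5 runs. *Fosb* at 482 against 750.4 CPM, *Jund* at 411 against 611 CPM, and *Nr4a2* at 342 against 565 CPM were also lower in 5 of 5 runs but within 2-fold. *Egr2* had 3 and 27 UMIs and lies under the minimum. *Junb*, at 1302 against 1327 CPM, was nearly level (fold 0.98, CI 0.94 to 1.03). Among genes that share induction pathways with this set, *Gadd45b*, a stress-responsive regulator of MAP kinase signaling, was 18.4-fold higher in migratory DCs, and *Zfp36l2*, which promotes mRNA decay, was lower at 46.2 against 713 CPM.

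Across the 14 gates, the levels of *Egr1* and *Jun* went together most closely among the 10 genes (r = 0.86 on log2(CPM + 10)), followed by *Fos* and *Jun* (r = 0.77), *Egr1* and *Nr4a1* (r = 0.75), and *Nr4a2* and *Nr4a3* (r = 0.74). The lowest values were those of *Jun* and *Nr4a3* (r = -0.49) and *Jund* and *Nr4a3* (r = -0.42). These are descriptions over gates that share their matrix, dissociation, and run, 2 cell types occur in both matrices besides macrophages, and no p-value was computed. Of 7777 genes, the closest in pattern were *Csf1* for *Egr1* (r = 0.93), *Usp2* for *Jun* (r = 0.93), *Hdlbp* for *Fosb* (r = 0.95), *Jak2* for *Nr4a3* (r = 0.93), *Jaml* for *Nr4a2* (r = 0.89), and *Med7* for *Fos* (r = 0.84). For *Junb* it was *Cr1l* (r = 0.89), for *Jund* *Xist* (r = 0.94), for *Egr2* *Nqo2* (r = 0.91), and for *Nr4a1* *Ube2v2* (r = 0.87).

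Within the CD4/CD8-selected cells, macrophages had far less *Nr4a2* and *Nr4a3* than CD8 T cells. *Nr4a2* was 8.55-fold lower (59.7 against 511 CPM) and *Nr4a3* 4.92-fold lower (53.8 against 265 CPM), each lower in 6 of 6 runs. These were the 2 of 9 genes past 2-fold in this direction, a share no larger than the 27.3% of 7207 genes that passed, and 0 of 9 passed it in the other direction, in which 15.9% did. At 1.5-fold, 3 of 9 were lower (41.3% of genes), the third being *Jund* at 470 against 935 CPM, and 1 was higher (22.7%). *Fosb* was at 498 against 551 CPM and *Junb* at 1147 against 1582 CPM. Run 3 holds 478 of the 916 macrophages and decides the other genes. Its macrophages stood at 243 CPM for *Fos* and 175 CPM for *Jun*, whereas the other 5 runs lay between 686 and 944 CPM for *Fos* and between 507 and 652 CPM for *Jun*. With all runs *Fos* was 1.52-fold and *Jun* 0.96-fold the level of CD8 T cells, and without run 3 they were 2.96-fold and 1.80-fold, with *Egr1* at 1.95-fold and *Nr4a1* at 1.5-fold in place of 1.12-fold and 0.97-fold. *Nr4a2* and *Nr4a3* stayed lower in macrophages without run 3, at 0.16-fold and 0.39-fold. *Egr2* was higher in macrophages in 6 of 6 runs (14 against 2.66 CPM), although its pooled level lies under the minimum.

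Macrophages of the CD11c-selected matrix were compared with those of the CD4/CD8-selected matrix to see whether cells of the same gate carry the same levels. All 10 genes were higher in CD11c-selected macrophages, and 3 of 10 passed 2-fold (3.73% of 7192 genes did), namely *Nr4a3* at 3.69-fold (199 against 53.8 CPM), *Egr1* at 2.57-fold (225 against 87.4 CPM), and *Fos* at 2.06-fold (838 against 407 CPM). The others were *Jun* at 1.81-fold, *Fosb* at 1.67-fold, *Nr4a2* at 1.62-fold, *Jund* at 1.58-fold, *Nr4a1* at 1.45-fold, *Junb* at 1.41-fold, and *Egr2* at 1.23-fold. The median fold of the 10 genes was 1.65 and that of all genes 1.13, and the share of all genes above 1 was not computed. Without CD4/CD8-selected run 3, 0 of 10 passed (1.5% of 7202 genes did), *Jun*, *Jund*, and *Nr4a1* turned to 0.95-fold, 0.85-fold, and 0.90-fold, and *Nr4a3* at 1.85-fold and *Egr1* at 1.5-fold were the furthest apart. *Hspa1a*, a heat shock gene, was also higher in CD11c-selected macrophages, at 356 against 139 CPM, and its part in these values was not tested. That run holds 166 of the 197 CD4/CD8-selected macrophages in the *Gpnmb* state (at least 2 *Gpnmb* UMIs and no marker of another state). Among *Gpnmb* state cells alone, 1 gene passed 2-fold (2.19% of 7153 genes), *Nr4a3* at 86.0 against 25.5 CPM (3.37-fold, CI 2.78 to 4.13), and the others lay between 0.98-fold (*Egr2*) and 1.57-fold (*Nr4a2*). Among macrophages with under 2 *Gpnmb* UMIs it was also *Nr4a3* alone (1.41% of 7147 genes), at 2.5-fold (CI 2.29 to 2.73), with the other genes between 1.05-fold (*Nr4a1*) and 1.66-fold (*Egr1*).

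*Nr4a3* was also the only gene of the set at least 2-fold higher in CD11c-selected cells in the epithelial gate, at 118 against 56.4 CPM (2.09-fold, 0.636% of 8174 genes), and in the fibroblast gate, at 270 against 129 CPM (2.08-fold, 2.61% of 7906 genes). Epithelial runs ranged from 79.8 to 189 CPM in the CD11c-selected and from 31.6 to 91.0 CPM in the CD4/CD8-selected matrix, so the ranges overlapped narrowly, and the 2 fibroblast runs in each matrix that held at least 20 cells, 339 and 175 CPM against 49.6 and 152 CPM, did not overlap. The other members of the epithelial comparison lay between 0.72-fold (*Nr4a1*) and 1.46-fold (*Egr2*), and those of the fibroblast comparison between 0.77-fold (*Fos*) and 1.5-fold (*Nr4a2*). Transcripts of antigen-presenting cells differed in the same gates. In epithelial cells *H2-Ab1* was at 76.7 CPM in the CD11c-selected and 7.9 CPM in the CD4/CD8-selected matrix and the summed C1q genes at 32.6 and 16.7 CPM, and the part of free RNA in the *Nr4a3* values was not tested.

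Within CD11c-selected macrophages, 2 states stood at opposite ends for all of these genes but *Fosb* and *Nr4a3*. They were the resident-like state marked by *Lyve1* and *Cd209f* and the state marked by *Gpnmb*, a gene of lipid-handling macrophages. States were set by at least 2 *Lyve1* and *Cd209f* UMIs, 2 *Gpnmb* UMIs, 1 *Il10* UMI, or 3 *Thbs1* UMIs, and cells of several states were left out. In 81 *Lyve1*/*Cd209f* cells against 274 *Gpnmb* cells all 10 of 10 genes were at least 2-fold higher, where 10.1% of 7323 genes were. *Egr1* stood at 1026 CPM (CI 958 to 1098) against 68.8 CPM (CI 62.4 to 75.8), which is 14.9-fold. *Egr2* was at 91.5 against 9.76 CPM (9.38-fold), *Nr4a1* at 383 against 56.4 CPM (6.79-fold), and *Fos* at 1395 against 251 CPM (5.55-fold). *Jun* was 4.78-fold, *Jund* 4.46-fold, *Junb* 3.44-fold, *Nr4a2* 3.29-fold, *Fosb* 2.56-fold, and *Nr4a3* 2.04-fold higher. The *Lyve1*/*Cd209f* state had under 20 cells in every run, so folds within runs were computed with overlapping states, gated on C1q and the state markers alone, which gave 438 and 552 cells. Cells that also met another gate or state were kept here, and a cell with both markers counted in both groups. All 10 genes were then higher in 6 of 6 runs, with *Egr1* folds from 5.65 to 29.6 and *Nr4a3* folds from 1.18 to 3.60, and 9 of 10 passed 2-fold with the runs together, against 9.21% of 7337 genes (*Nr4a3* was at 1.71-fold). How many of all genes were higher in 6 of 6 runs was not computed.

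The macrophages marked by *Il10* (826 cells) and by *Thbs1* (644 cells) lay between these ends for most genes, with separate profiles. For *Egr1* the *Il10* state was at 364 CPM and the *Thbs1* state at 130 CPM, and in each of the 5 runs that both filled the *Il10* cells were higher, by values such as 660 against 175 CPM in run 1 and 181 against 121 CPM in run 2. For *Fos* the order was the opposite, with 900 CPM in the *Il10* and 1278 CPM in the *Thbs1* state. *Nr4a3* was highest in these 2 states, at 276 and 291 CPM, above the 176 CPM of the *Lyve1*/*Cd209f* state.

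**Figure D2:**
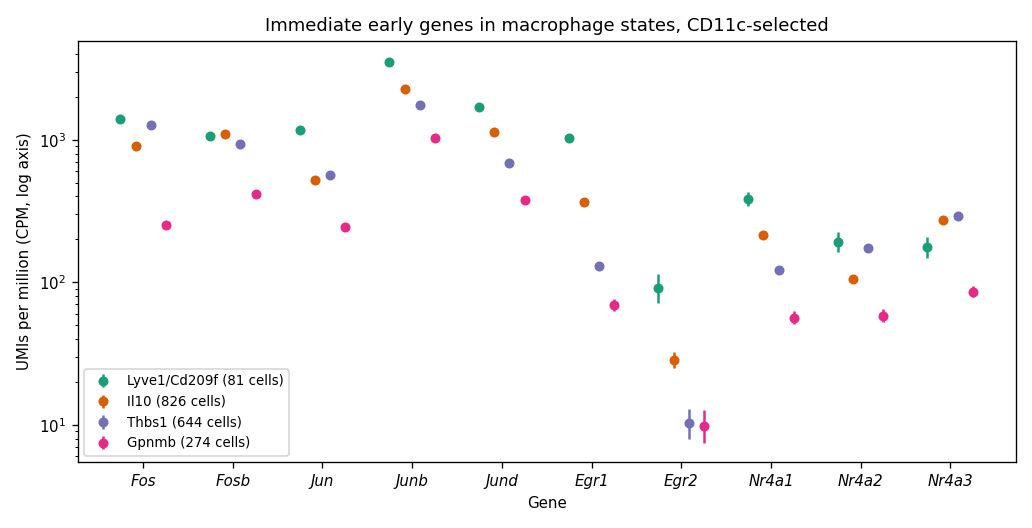
CPM (log axis) of each gene in 4 macrophage states of the CD11c-selected matrix, with exact 95% Poisson intervals as bars. The *Gpnmb* state is lowest for every gene, and the *Lyve1*/*Cd209f* state is highest for all but *Fosb* and *Nr4a3*.

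Of 24 other immediate early and feedback genes above the level minimum, 14 were at least 2-fold higher in *Lyve1*/*Cd209f* cells and 1 was lower, *Rgs1* at 250 against 644 CPM. *Zfp36*, whose product destabilizes cytokine mRNAs, was at 1628 against 255 CPM and *Klf2*, a factor of quiescence, at 532 against 92.6 CPM. All 9 measured AP-1 partners were at least 2-fold higher, led by *Maf* at 754 against 49.8 CPM. Heat shock transcripts differed as well. Of 8 heat shock genes 3 were at least 2-fold higher, among them *Hspa1a* at 957 against 218 CPM, and *Hspe1* was at 177 against 337 CPM. In cells of the overlapping states with no UMI of *Hspa1a* or *Hspa1b* (137 and 261 cells) *Egr1* was 12-fold and *Nr4a1* 5.09-fold higher, but *Fos*, *Fosb*, and *Jun* were at 1.91-fold, 1.71-fold, and 1.65-fold, so that 7 of 10 genes passed 2-fold, against 9.61% of 7324 genes. Median UMIs per cell differed, at 7998 in the *Lyve1*/*Cd209f* and 19260.5 in the *Gpnmb* state. With each cell thinned to 2000 UMIs, *Egr1* was found in 67.1% (exact CI 55.4 to 77.5) of 76 *Lyve1*/*Cd209f* cells and 9.02% (CI 5.87 to 13.1) of 266 *Gpnmb* cells (84.0% and 28.5% before thinning). No gated type is known to lack these genes, so no background share from free RNA was available.

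Over the 6 runs of CD11c-selected macrophages, 6 of 10 genes had a highest run at least 2-fold above the lowest, against 10.1% of 7226 genes. They were *Egr1* (3.35-fold), *Egr2* (2.76-fold), *Nr4a3* (2.61-fold), *Jund* (2.45-fold), *Nr4a1* (2.27-fold), and *Nr4a2* (2.08-fold). *Egr1* read 515, 162, 213, 269, 154, and 204 CPM from run 1 to run 6, so run 1 was high and the other 5 lay within 154 to 269 CPM. Run 1 was highest for 9 of the 10 genes, the exception being *Jund*, which was highest in run 4 at 1174 CPM. The share of all genes that were highest in run 1 was not computed. Without the sparsely filled run 4, 4 genes passed (6.43% of 7219 genes), since the lowest values of *Nr4a2* and *Nr4a3* came from it, and without run 1, 3 passed (6.46% of 7214 genes). In run 1 the median mitochondrial share was 5.48%, against 4.23% to 5.63% in the others, and the summed heat shock level was 3743 CPM, within the 3580 to 4520 CPM of the others. The macrophage states were spread unevenly over the runs. From run 1 to run 6 there were 217, 215, 149, 22, 139, and 84 *Il10* cells. The *Gpnmb* state had 16, 46, 29, 14, 108, and 61 cells, and all macrophages were 699, 1484, 757, 143, 1576, and 1079. The part of the states in the run values was not tested.

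In CD8 T cells 2 of 9 genes above the level minimum spread by at least 2-fold (8.22% of 6825 genes), *Nr4a1* at 2.54-fold and *Fos* at 2.03-fold. *Nr4a1* read 92.7, 82.7, 79.9, 113, 53.6, and 136 CPM and *Fos* 226, 352, 276, 359, 177, and 240 CPM from run 1 to run 6. Run 5 was lowest for 8 of the 10 genes, *Jund* and *Nr4a3* being lowest in runs 6 and 2. The share of all genes that were lowest in run 5 was not computed. At 1.5-fold, 8 of 9 genes passed (34.8% of genes). Without run 5, 0 of 9 passed 2-fold (7.76% of 6828 genes), and without run 4, where *Fos* was highest, 1 did (7.62%). The heat shock genes varied more, with *Hspa1a* between 18.9 and 255 CPM over the same runs.

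**Figure D3:**
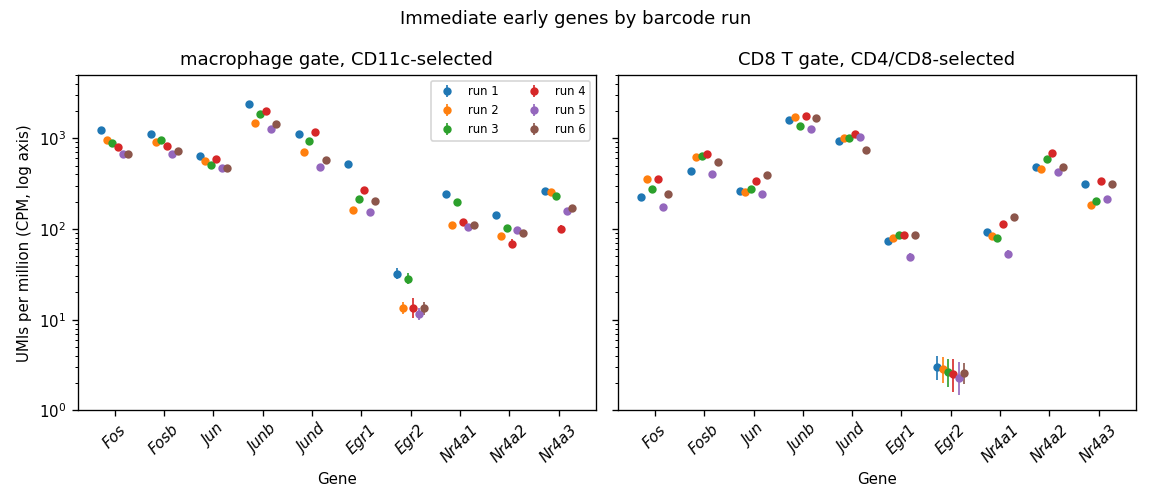
CPM (log axis) of each gene in each of the 6 runs, for CD11c-selected macrophages (left) and CD4/CD8-selected CD8 T cells (right), with exact 95% Poisson intervals as bars. Run 1 lies highest for 9 genes in macrophages (*Egr1* at 515 CPM), and run 5 lowest for 8 genes in CD8 T cells (*Egr1* at 49.5 CPM). The same shares over all genes were not computed. Run numbers are not shared between the matrices.

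In CD8 cells, those that carried *Ifng* transcripts, the cytokine made upon antigen recognition, also carried more of every one of the 10 genes. Among cells with at least 1 *Cd8a* UMI, 2398 had 2 or more *Ifng* UMIs and 10881 had 0. *Nr4a1* was at 168 CPM (CI 162 to 175) against 84.9 CPM (CI 82.6 to 87.2), a fold of 1.98 (CI 1.89 to 2.08). In runs 1 to 6 it read 168, 130, 132, 162, 109, and 242 CPM in *Ifng* cells and 76.5, 80.2, 64.4, 106, 52.7, and 115 CPM in cells without, so each run showed the difference while the ranges of the groups overlapped between runs. *Egr1* was at 123 against 74.8 CPM (1.64-fold), with run folds from 1.17 to 2.09. *Nr4a2* was at 659 against 428 CPM (1.54-fold), with run folds from 1.2 to 1.87, and *Nr4a3* at 320 against 240 CPM (1.33-fold).

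Among the AP-1 genes, *Fosb* was at 738 against 501 CPM (1.47-fold) and *Jun* at 426 against 289 CPM (1.47-fold), followed by *Fos* at 360.0 against 266 CPM, *Junb* at 1.26-fold, and *Jund* at 1.21-fold. All 10 genes were higher in 6 of 6 runs, and the share of all genes that were so was not computed. *Egr2* was at 6.63 against 2.02 CPM (3.28-fold, CI 2.51 to 4.29), from 106 and 124 UMIs, with run folds from 1.44 to 8.95, and lies under the level minimum. Of the 9 genes above it, 0 passed 2-fold, as did 0.241% of 7046 genes (2.02% were as much lower), and 3 passed 1.5-fold (*Nr4a1*, *Egr1*, and *Nr4a2*), as did 1.35%. The median fold of the 9 genes was 1.47 and that of all genes 1.02, and the fold of *Nr4a1* was above that of 99.7% of genes, the fold of *Jund* above that of 92.5%. Without the cells that carry any *Hspa1a* or *Hspa1b* UMI the folds were from 1.17 (*Junb*) to 1.67 (*Nr4a1*) for these 9 genes, in 1847 and 9642 cells.

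**Figure D4:**
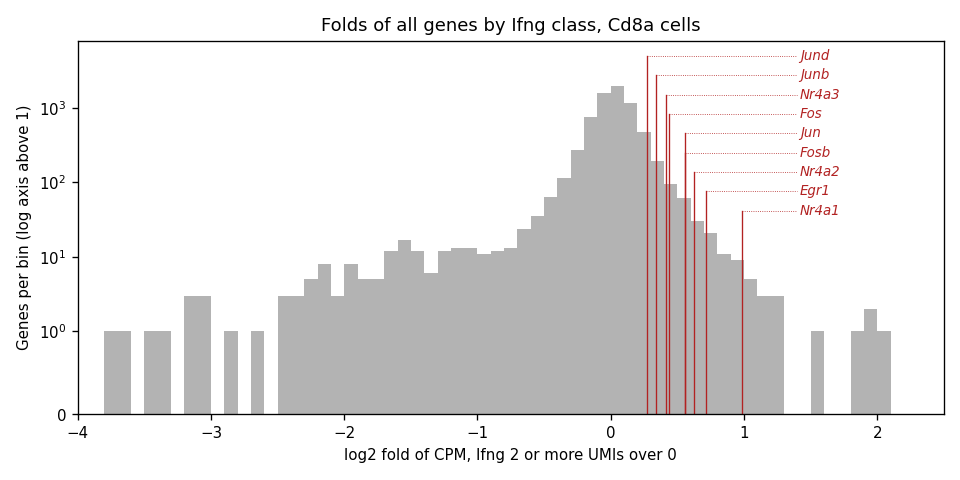
Number of genes (bars, log axis above 1) by log2 fold of CPM between *Cd8a* cells with 2 or more and with 0 *Ifng* UMIs, for genes of at least 10 CPM, with the 9 measured immediate early genes as red lines. 6 genes lie outside the range drawn. *Nr4a1* lies furthest to the right, at 0.99, and *Jund* nearest to 0, at 0.27.

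With finer classes of *Ifng* the pooled levels of all 10 genes were higher from class to class. In cells with 0, 1, 2 to 4, and 5 or more *Ifng* UMIs, *Nr4a1* stood at 84.9, 103, 134, and 272 CPM and *Egr1* at 74.8, 81, 102, and 186 CPM. *Jun* stood at 289, 316, 369, and 601 CPM, and *Nr4a2* at 428, 561, 618, and 784 CPM. In the 561 cells with 5 or more *Ifng* UMIs, 3 genes passed 2-fold over cells without *Ifng* (0.794% of 7052 genes), *Nr4a1* at 3.21-fold, *Egr1* at 2.48-fold, and *Jun* at 2.08-fold. Runs differed, as *Nr4a1* in cells with 5 or more UMIs read 126 CPM in run 2 and from 224 to 333 CPM in the other 5, and *Egr2* read 48.2 CPM in run 5, from 12 UMIs in 31 cells, and from 7.10 to 17.2 CPM elsewhere.

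**Figure D5:**
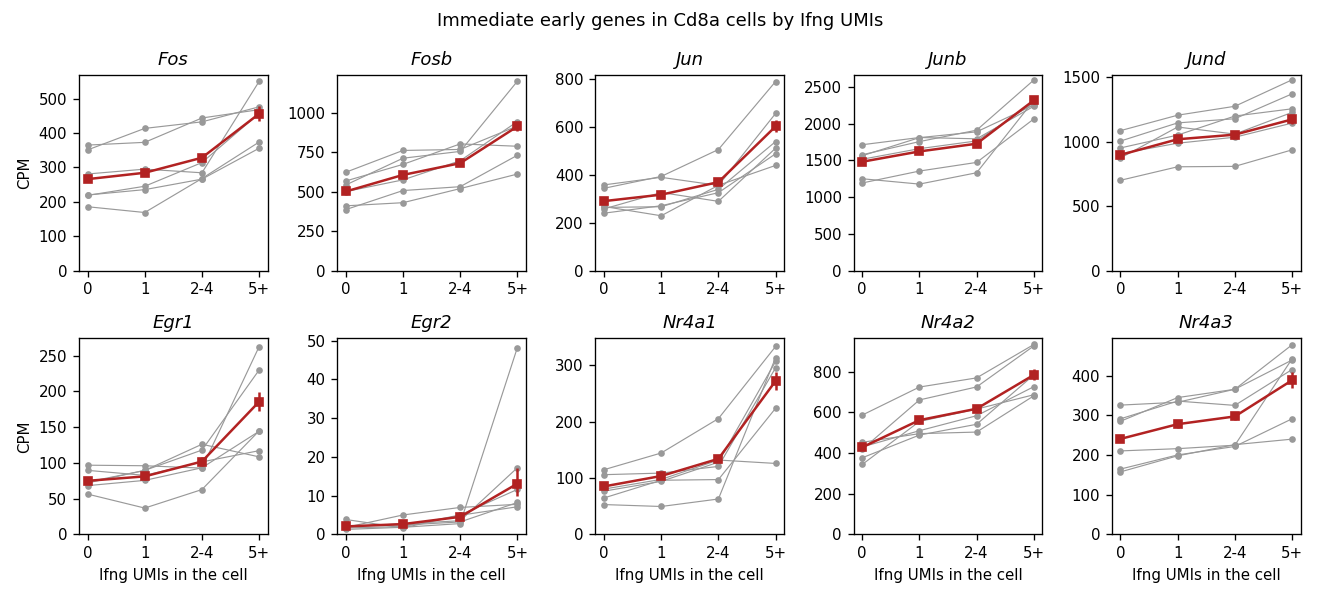
CPM of each gene in *Cd8a* cells with 0, 1, 2 to 4, and 5 or more *Ifng* UMIs, as gray lines for the 6 runs and red squares for all runs together with exact 95% Poisson intervals. The red values are higher in each next class for all 10 genes, for instance from 84.9 to 272 CPM for *Nr4a1*.

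Of 27 other immediate early and feedback genes above the level minimum, 26 had folds above 1 and 3 passed 1.5-fold, *Myc* at 1.90-fold, *Gadd45b* at 1.58-fold, and *Klf6* at 1.52-fold, and the exception was *Ier3* at 36.4 against 108 CPM. All 12 measured T cell activation genes had folds above 1, with the chemokine genes *Ccl3* at 3.85-fold and *Ccl4* at 2.98-fold. The AP-1 partners did not follow, with a median fold of 1.00 over 9 genes, *Batf* at 47.1 against 35.0 CPM, and *Fosl2* at 242 against 232 CPM. Of 8 heat shock genes, 7 had folds above 1 and 2 passed 2-fold, *Hspa1b* at 3.88-fold (240 against 62.0 CPM) and *Hspa1a* at 3.58-fold (272 against 75.8 CPM), and *Hspb1* was lower at 12.7 against 26.7 CPM. The folds spread widely over runs, from 1.04-fold to 6.73-fold for *Hspa1b*. Folds above 1 were common among all genes, whose median fold was 1.02, and the share of all genes above 1 was not computed. Macrophage transcripts went the other way, with the summed C1q genes at 436 CPM in cells without and 147 CPM in cells with 2 or more *Ifng* UMIs. With the full CD8 T gate and under 3 C1q UMIs per cell, *Nr4a1* was 2.16-fold and *Egr1* 1.82-fold higher. Cells with *Ifng* were slightly deeper, with a median of 5182 against 4593 UMIs, and with cells without *Ifng* matched to them by run and depth the *Nr4a1* fold was 1.97. With each cell thinned to 2000 UMIs, *Nr4a1* was found in 22.7% (exact CI 21.1 to 24.5) of 2365 cells with 2 or more *Ifng* UMIs and in 13.98% (CI 13.3 to 14.7) of 9798 cells without (44.9% and 27.6% before thinning).

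States of the CD8 T gate were set by *Pdcd1*, the gene of the PD-1 receptor, with *Havcr2* or *Tcf7*. In 357 cells with *Pdcd1* and *Havcr2* and without *Tcf7*, the markers of terminally exhausted cells, *Nr4a2* stood at 837 CPM (CI 797 to 878), and in 1384 cells with *Pdcd1* and *Tcf7* and without *Havcr2*, as in progenitor-like exhausted cells, it stood at 537 CPM (CI 522 to 552). From run 1 to run 6 it read 570, 866, 800, 1343, 524, and 1160 CPM in the former and 477, 533, 646, 564, 463, and 561 CPM in the latter, so each run was higher in the *Havcr2* cells while the ranges overlapped between runs. *Jund* was at 1188 against 919 CPM, also higher in the *Havcr2* cells in each of the 6 runs. *Fos*, at 211 against 282 CPM, and *Nr4a1*, at 65.7 against 97.5 CPM, were lower in them with the runs together. *Nr4a3*, at 304 against 337 CPM, was lower in 4 runs and higher in runs 3 and 6. *Fosb*, at 480.3 against 593 CPM, *Jun*, at 221 against 313 CPM, and *Junb*, at 1269 against 1665 CPM, were lower in the *Havcr2* cells with the runs together, whereas *Egr1*, at 83.4 against 69.8 CPM, was higher. No difference between these states reached 2-fold. Run 6 held 395 of the *Tcf7* cells and 35 of the *Havcr2* cells. In the CD8 T gate that run was highest for *Jun* (389 CPM) and *Nr4a1* (136 CPM). The part of this run mix in the pooled values was not tested. *Egr2* had 9 and 22 UMIs. In 1267 cycling cells (at least 2 UMIs of *Mki67* and *Top2a*) *Nr4a2* stood at 468 CPM and *Nr4a1* at 115 CPM. The *Ifng* level was 234 CPM in the *Havcr2* and 168 CPM in the *Tcf7* cells, and median UMIs per cell were 4701 and 5461.

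Within single cells thinned to 2000 UMIs, the genes were found together more often than their separate shares give within runs. In 4982 CD11c-selected macrophages, all 45 pairs exceeded that number, by 1.15-fold at the median. In 13984 CD8 T cells 44 of 45 pairs did, by 1.05-fold at the median. Pairs of other genes were not counted, so no background share stands beside these numbers. Whether they are particular to this set was not tested. In macrophages *Egr2* with *Nr4a1* reached 1.96-fold (98 cells against 49.98), *Egr1* with *Egr2* 1.92-fold (105 against 54.8), and *Egr1* with *Nr4a1* 1.63-fold (453 against 277), each in 6 of 6 runs. *Egr1* with *Nr4a1* was found in 414 CD8 T cells against 303, with more in 6 of 6 runs. *Jun* with *Nr4a2* was near the separate shares in both, at 1.02-fold and 1.01-fold. Cells of 1 run share dissociation and capture, and depth left after thinning, cell states, and doublets were not separated in these counts.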

How the data were processed

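Raw whole-number UMI counts were deposited in 1 matrix per selection, each pooling 6 samples. The submitters' processing notes name Cell Ranger 3.0.2 and the build mm10, and any filter on cells is not given in the sources used here. Cells with under 200 detected genes were left out (341 and 295 barcodes), and doublets were not removed. Barcodes carry no sample name, so the fits by genotype that had been planned with a count model were not run, no replicate error exists, and each matrix counts as 1 sample. UMIs were summed over gated cells and divided by all UMIs of those cells (CPM), in Python 3.11.15 with numpy 2.4.6 and scipy 1.17.1. Intervals are exact (Poisson, binomial on the 2 counts for folds, Clopper-Pearson for shares), at 95%, and where the lower count is 0 a floor of 3 UMIs was used. They cover counting error only. Gates with under 50 cells and runs with under 20 cells were not described, and cells that met no gate (21.2% and 25.5%) or several (12.3% and 0.930%) were left out. The overlapping macrophage states and the *Ifng* classes of *Cd8a* cells did not use this exclusion. Named differences are folds of 2 at a pooled level of at least 10 CPM, and the share of all genes past the same fold stands beside the counts in the results. The method was tested on simulated data. A further comparison of CD8 T cell states is not reported here. All 10 genes were computed in every comparison, and other genes come from lists of AP-1 partners, other immediate early and feedback genes, T cell activation genes, and heat shock genes (their counts, and up to 4 values, the largest and smallest folds or genes of clear function chosen after their values were seen). The genes, lists, and gates were chosen with earlier results of these data known. Gene positions are from GENCODE M21 on GRCm38 and promoter windows from RefSeq. Alternatives were other cell filters, a mean over cells, other *Ifng* thresholds, other denominators, depth matching, doubled gate thresholds, and leaving out each run, and those without *Hspa1a* and *Hspa1b*, by macrophage state, with overlapping states, or without CD4/CD8-selected run 3 were chosen after seeing the data.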

Additional observations from a re-analysis of the deposited data

Results flagged for a closer look

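Of 20 combinations of gene and gate examined over 6 runs, 2 had a run far from the others, and chance flags about 1 in 20 groups. *Egr1* in CD11c-selected macrophages stood at 514.695 CPM in run 1, the highest, with the other 5 runs between 154 and 269 CPM. *Egr1* in CD8 T cells stood at 49.5321 CPM in run 5, the lowest, with the other 5 between 74.6 and 86.3 CPM. The runs were linked to no sample, and the cause was not tested.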

How the results depend on the processing

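No paired analysis was possible because barcodes name no sample, so replicate numbers could not be used. The folds of the 10 genes by *Ifng* stayed above 1 under the settings tried (18 with that of the report), with *Nr4a1* from 1.61 to 3.21, *Jun* from 1.29 to 2.08, and *Jund* from 1.16 to 1.31. The number of these genes past 2-fold, 0 with the settings of the report, was 1 with a mean over cells, without the highest 5% of UMIs, with the full CD8 T gate, or with no minimum level, 3 with at least 5 *Ifng* UMIs or at a fold of 1.5, and from 0 to 1 when leaving out each run. For runs of CD8 T cells the number was 8 at a fold of 1.5 in place of 2 and from 0 to 2 when leaving out each run, and for runs of macrophages, 6 with the settings of the report, it was 8 with a mean over cells, 9 at a fold of 1.5, 5 without the highest 5% of UMIs, and from 3 to 6 when leaving out each run. Macrophages against CD8 T cells gave 4 genes at a fold of 1.5, in place of 2 with the settings of the report. They gave 3 when leaving out each run in turn, with a mitochondrial share of at most 10%, or with no minimum level. Macrophages between the matrices gave 1 gene in the *Gpnmb* state, 1 with under 2 *Gpnmb* UMIs, and 0 without CD4/CD8-selected run 3, in place of 3. The cause of these changes was not tested. The comparisons of macrophages with T cells and of the CD8 T gate that needed T cells of the CD11c-selected matrix were not run, since that gate held 27 cells. Depth limits *Egr2* most, with 106 and 124 UMIs in the *Ifng* comparison.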
